A study of Sorghum bicolor with 4 samples.

Results

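The circadian clock and photoperiod maturity genes of sorghum were examined in the stalk. They are 8 genes chosen by identifier, LHY (Sobic.007G047400), TOC1 (Sobic.004G216700), GI (Sobic.003G040900), ELF3 (Sobic.009G257300), PRR37 or Ma1 (Sobic.006G057866), Ghd7 or Ma6 (Sobic.006G004400), Ma2 (Sobic.002G302700) and CO (Sobic.010G115800), of 34129 gene identifiers in 34458 loci. The material was the middle stem internode of field-grown ICSA38, a sweet sorghum line whose stalk stores sugar. It was sampled at physiological maturity of the grain (2 libraries) and at the earlier milk stage of grain filling (2 libraries). Line, tissue and field growth were shared by both stages, and the labels give neither the hour of harvest, the number of plants behind a library, nor the alleles that ICSA38 carries at the maturity loci. If the hour of harvest differed, stage and hour cannot be told apart.

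The deposited table holds 1 FPKM value for each locus and stage. FPKM is a fragment count scaled to the length of the locus and to the size of the library, so the levels of different genes can be set side by side. Each value was taken as the authors' combined value for the libraries of a stage, and it has no error. The spread between libraries is therefore unknown, no test was possible, and differences are described by their size alone. Sequencing depth is unknown, and the values summed to 666768 FPKM at maturity and 800834 FPKM at the milk stage. Of the marker genes fixed for the tissue, only SUT1 (Sobic.001G488700), a sucrose-proton symporter used as a phloem marker, could be looked up by identifier, at 139 FPKM at maturity and 88.3 FPKM at the milk stage.

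The plant clock is a set of interlocked transcriptional loops that keeps daily time. In Arabidopsis, LHY is expressed around dawn and represses evening genes, and TOC1, a pseudo-response regulator expressed around dusk, represses LHY in turn. In sorghum the clock and light signals act on the maturity (Ma) loci, several of which delay flowering under long days by repressing florigen genes. These loci are best known for their action in leaves.

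None of the 8 genes was missing from the table or shared its locus with another identifier. At 1 FPKM or more at either stage were 5 of them, namely LHY, TOC1, GI, ELF3 and Ma2. The other 3, PRR37, Ghd7 and CO, were under 1 FPKM at both stages. All 4 clock genes thus reached 1 FPKM in the internode, against 1 of the 4 photoperiod genes. Under 1 FPKM at both stages were 45.6% of all loci and 3 of these 8 genes, so the count itself is not a result about them. Among the 8 genes, 4 had a higher value at maturity (LHY, GI, PRR37 and Ghd7) and 4 a lower one (TOC1, ELF3, Ma2 and CO). Of the 5 that reached 1 FPKM, 2 had a higher value and 3 a lower one. The directions of PRR37, Ghd7 and CO are not read as stage differences. As these are bulk tissue values, fewer cells expressing a gene and less of its RNA per cell cannot be told apart.

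**Figure D1:**
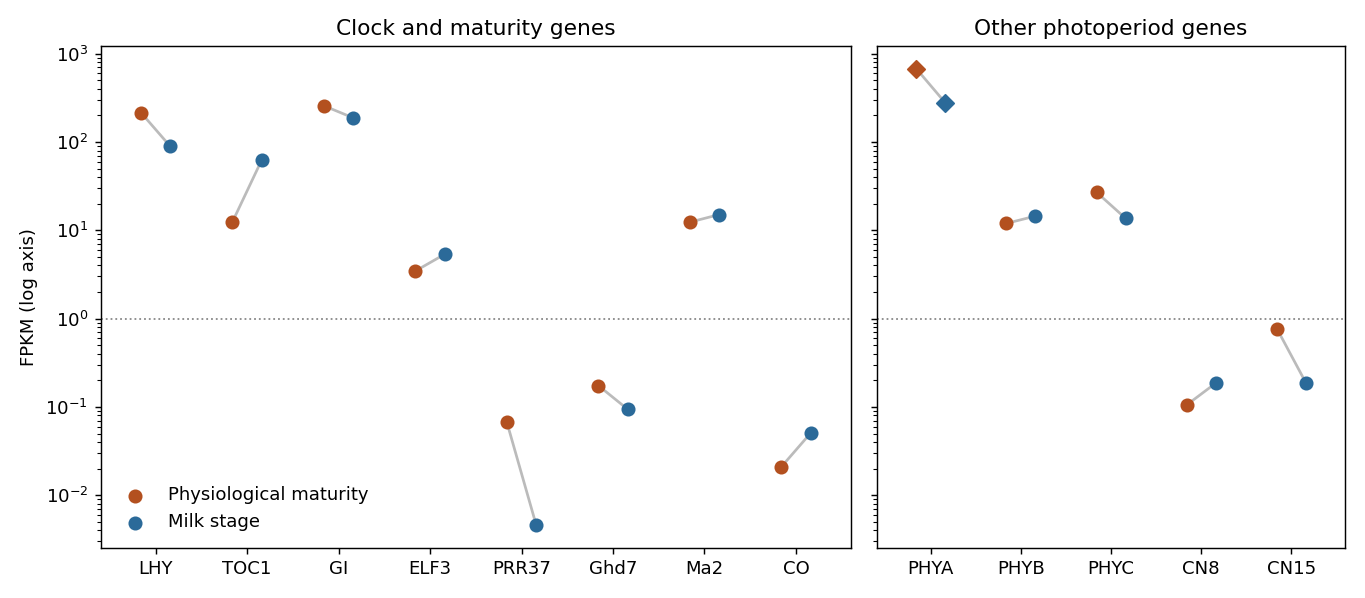
FPKM on a log axis of each gene at physiological maturity (left point of a pair) and at the milk stage (right point), as deposited, with 1 value per stage and no error. The dotted line marks 1 FPKM, the diamonds mark a locus that PHYA shares with another identifier, and EHD1 and CN12, listed at 0 at both stages, are not drawn. LHY and TOC1 differ in opposite directions, while PRR37, Ghd7 and CO lie below the line at both stages.

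The clock genes differed between the stages in opposite directions. LHY was higher at maturity and TOC1 lower, each by over 2-fold, while GI and ELF3 were within 2-fold. LHY, the MYB-related transcription factor of the morning, had 215 FPKM at maturity and 89.2 FPKM at the milk stage. It ranked 464 among all loci at maturity and 1579 at the milk stage. TOC1, the evening pseudo-response regulator, had 12.5 FPKM at maturity and 62.5 FPKM at the milk stage. It ranked 8795 at maturity and 2333 at the milk stage.

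The log2 difference was taken between maturity and milk stage on FPKM plus 1, a scale that shrinks the differences of weakly expressed loci. On this scale LHY differed by 1.26 (2.39-fold higher at maturity) and TOC1 by -2.24 (4.72-fold lower). Without the added 1, LHY was 2.41-fold higher and TOC1 5.02-fold lower. A total of 18749 loci had 1 FPKM or more at either stage. At maturity 11.5% of them were higher by 2-fold or more and 10.7% were lower by as much, together 22.3%. Among the 8 genes, 1 was at least 2-fold higher and 1 at least 2-fold lower, 2 of the 5 that reached 1 FPKM, so the count itself is not a result about these genes. The median log2 difference of these 5 genes was -0.27, that of Ma2, against 0.04 over all loci compared.

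Of the loci compared, 1.63% had a lower log2 difference than TOC1, and 7.24% had a higher one than LHY. In the abundance range of TOC1, a mean of 20 to 100 FPKM, 11.0% of 5258 loci were lower at maturity by 2-fold or more. In that of LHY and GI, a mean of 100 to 500 FPKM, 7.05% of 1149 loci were higher by 2-fold or more and 17.7% were lower, with a median log2 difference of -0.23.

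**Figure D2:**
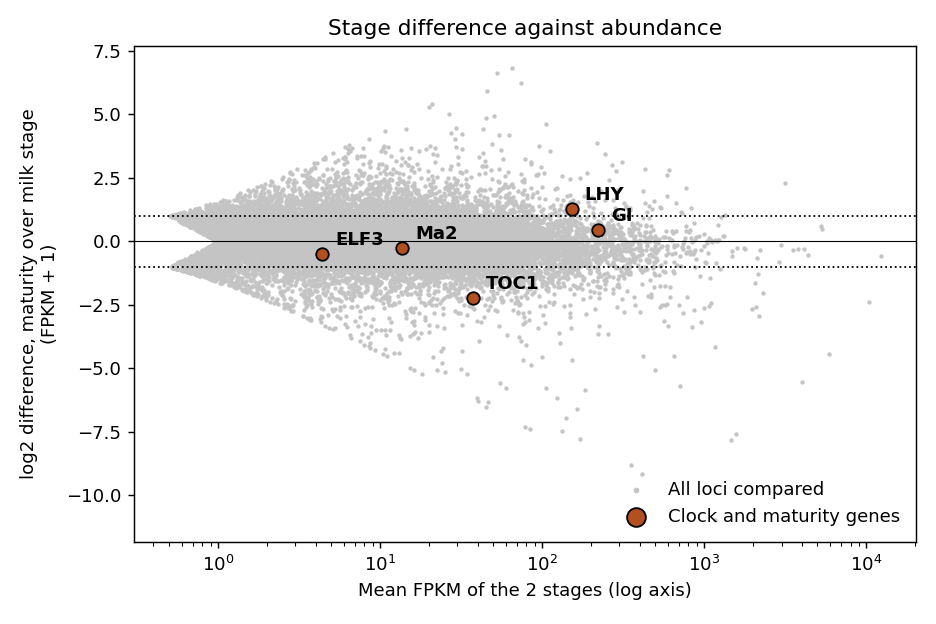
The log2 difference of maturity over milk stage (FPKM + 1) against the mean FPKM of the stages on a log axis, for the 18749 loci compared (grey) and the 5 clock and maturity genes among them (filled circles). Dotted lines mark 2-fold. TOC1 at -2.24 lies below the lower line and LHY at 1.26 above the upper one, with GI, ELF3 and Ma2 between the lines.

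GI, a large plant-specific protein that in Arabidopsis links the clock to CO and to flowering, was the most abundant of the 8 genes at both stages. It had 257 FPKM at maturity and 188 FPKM at the milk stage, a log2 difference of 0.45 that lies inside the central range of all loci (25th percentile -0.48, 75th percentile 0.57). ELF3, a component of the evening complex that in Arabidopsis represses genes at night, was the least abundant of the clock genes. It had 3.46 FPKM at maturity and 5.36 FPKM at the milk stage, a log2 difference of -0.51, just outside that central range. In Arabidopsis GI, like TOC1, is expressed towards the evening. Here GI had a higher value at maturity and TOC1 a lower one. The part of the hour of harvest in these values was not tested.

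Ratios between clock genes within a stage do not depend on a common scale factor of that stage, apart from the added 1. The LHY to TOC1 ratio (FPKM plus 1) was 16.1 at maturity and 1.42 at the milk stage, 11.3 times as large at maturity. At the milk stage the pair was thus close in level, and at maturity LHY was far above TOC1. The GI to TOC1 ratio was 19.2 at maturity and 2.97 at the milk stage. The LHY to GI ratio moved less, with 0.838 at maturity and 0.479 at the milk stage, so GI stayed above LHY at both stages. LHY to ELF3 was 48.4 at maturity and 14.2 at the milk stage. The GI to TOC1 and LHY to ELF3 ratios were chosen after the values had been seen.

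**Figure D3:**
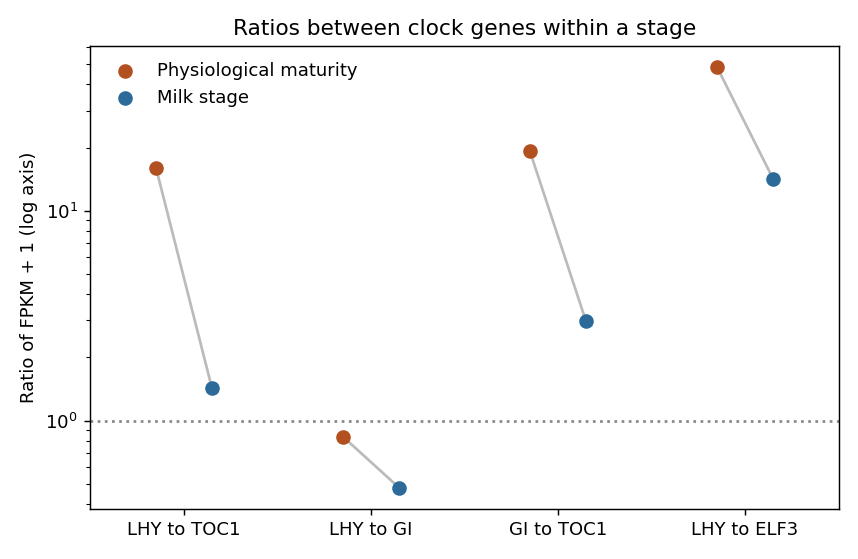
Ratios of FPKM + 1 between pairs of clock genes on a log axis, at physiological maturity (left point) and at the milk stage (right point), with no error available. The dotted line marks equal levels. The LHY to TOC1 ratio stands at 16.1 at maturity and 1.42 at the milk stage, and the LHY to GI ratio lies below 1 at both stages.

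The order of the levels was nearly the same at both stages. From high to low it ran GI, LHY, TOC1, Ma2, ELF3 and Ghd7, followed by PRR37 and CO at maturity and by CO and PRR37 at the milk stage. At maturity TOC1 (12.5 FPKM) and Ma2 (12.4 FPKM) had almost equal values. Without a spread between libraries no neighbours in the order can be called different.

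Of the photoperiod genes only Ma2 reached 1 FPKM. Ma2 encodes a protein with SET and MYND domains of the lysine methyltransferase type, and in sorghum it is known to raise the expression of PRR37 and CO. It had 12.4 FPKM at maturity and 15.1 FPKM at the milk stage, a log2 difference of -0.27 that lies in the central range of all loci. After scaling both stages to equal sums this difference was -0.019. That scaling moved the median of the loci compared by 0.23, so the shift was not particular to Ma2.

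PRR37, the pseudo-response regulator of the Ma1 locus and a repressor of flowering under long days, had 0.0670 FPKM at maturity and 0.00462 FPKM at the milk stage. Ghd7, the CCT-domain repressor of the Ma6 locus, had 0.175 FPKM at maturity and 0.0942 FPKM at the milk stage. CO, the sorghum relative of Arabidopsis CONSTANS, had 0.0210 FPKM at maturity and 0.0505 FPKM at the milk stage. All 3 thus had low values at both stages, and none was listed at 0. The share of all loci with a still lower value ran from 23.6% (PRR37 at the milk stage) to 37.9% (Ghd7 at maturity). Of all loci, 45.6% were under 1 FPKM at both stages and 19.7% were listed at 0 at both.

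The plain ratios of these low genes are not read as stage differences. That of PRR37 was 14.5 for maturity over milk stage, that of Ghd7 was 1.85, and CO was 2.41-fold lower at maturity. Among the 2780 loci above 0 and under 0.2 FPKM at both stages, 54.5% were at least 2-fold apart as a plain ratio in either direction. In the same loci 2.45% were at least as far apart as PRR37, 45.1% as CO and 58.1% as Ghd7. With 1 added to each FPKM, the log2 differences of the 3 genes were 0.09 for PRR37, 0.10 for Ghd7 and -0.04 for CO.

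The 3 low genes also shared the form of their locus name. They were listed under a reference gene name ending in v3.2, whereas the 5 higher genes were listed under numbered MSTRG loci. Of the 23813 MSTRG loci 78.5% reached 1 FPKM at either stage, against 0.507% of the 10645 loci named v3.2. The form of the name therefore went with abundance across the whole table.

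The loci next to each gene in identifier order were examined as the nearest identifier on each side that reached 1 FPKM. On FPKM plus 1, 2 of these 16 neighbours had values higher by 2-fold or more at maturity, those numbered below LHY and below GI. None had values lower by as much. Over all loci compared, 11.5% were higher and 10.7% lower by as much, so the count itself is not a result about these neighbours. As plain ratios, which weigh low loci more, 4 were higher and 1 was lower. Among these, Sobic.007G047450 and Sobic.006G058000 reached 1 FPKM at only 1 stage, and passing in this way favours a large ratio. The plain-ratio count is therefore not read as a result. The neighbours of TOC1 were within 2-fold, with 45.7 FPKM at maturity and 39.0 FPKM at the milk stage for Sobic.004G216600. Sobic.004G216800, on the other side of TOC1, had 97.2 FPKM at maturity and 117 FPKM at the milk stage. Neither neighbour showed a difference of the size seen in TOC1.

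Next to LHY stood a more abundant gene that differed in the same direction. Sobic.007G047300, known as Bmr12, which encodes a caffeic acid O-methyltransferase of lignin synthesis, had 997 FPKM at maturity and 463 FPKM at the milk stage, 2.15-fold higher as a plain ratio. The LHY value was 21.6% of that of Bmr12 at maturity and 19.3% at the milk stage. On the other side of LHY, Sobic.007G047450 had 1.16 FPKM at maturity and 0.273 FPKM at the milk stage. The part of these neighbours in the LHY value was not tested. The neighbours of GI lay in opposite directions, with 37.9 FPKM at maturity and 17.0 FPKM at the milk stage for Sobic.003G040800. Sobic.003G041000 had 38.4 FPKM at maturity and 65.6 FPKM at the milk stage, and both were well below GI in level.

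A further 7 genes of photoperiod control were looked up by identifier, the phytochromes PHYA, PHYB and PHYC, the floral inducer EHD1, and the florigen family members CN8, CN12 and CN15. Of these, 3 reached 1 FPKM, all of them phytochrome loci, and 1 was at least 2-fold higher at maturity. Over all loci, 45.6% were under 1 FPKM at both stages. Of the loci compared, 11.5% were at least 2-fold higher, so these counts are not results about the 7 genes. The locus higher by 2-fold or more was that of PHYA, with 675 FPKM at maturity and 279 FPKM at the milk stage. This locus carries Sobic.001G111366 beside PHYA (Sobic.001G111500), and its value cannot be assigned to either gene. PHYC (Sobic.001G087100), the photoreceptor of the Ma5 locus, had 26.9 FPKM at maturity and 13.7 FPKM at the milk stage, a log2 difference of 0.93. PHYB (Sobic.001G394400), the photoreceptor of the Ma3 locus, had 12.0 FPKM at maturity and 14.5 FPKM at the milk stage, a log2 difference of -0.25.

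The genes through which the maturity loci act on flowering in leaves were listed at 0 or had values under 1 FPKM in the internode. EHD1 (Sobic.001G227900), an activator of florigen genes, and CN12 (Sobic.003G295300), a florigen candidate, were listed at 0 at both stages. CN8 (Sobic.009G199900), another florigen candidate, had 0.106 FPKM at maturity and 0.186 FPKM at the milk stage. CN15 (Sobic.010G045100), a relative of the rice florigen gene Hd3a, had 0.767 FPKM at maturity and 0.188 FPKM at the milk stage. CN15 was the highest of these genes, and its maturity value lay above that of 46.7% of all loci.

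The direction of each of the 8 genes was the same with pseudocounts of 0.1 and 0.5, with no pseudocount, and under quantile, equal-sum and median-of-ratios scaling. A pseudocount cannot turn a sign, so only the scalings bear on direction. Under these settings the log2 difference of LHY ran between 1.22 and 1.52 and that of TOC1 between -2.33 and -1.99. GI ran between 0.42 and 0.73 and ELF3 between -0.65 and -0.30, so both remained within 2-fold.

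**Figure D4:**
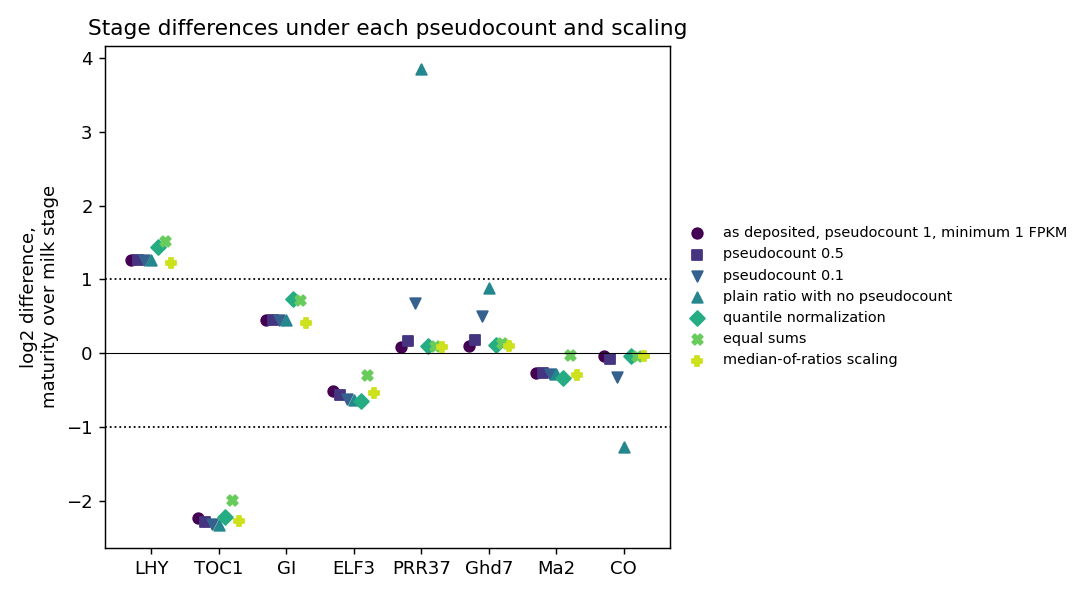
The log2 difference of maturity over milk stage of each of the 8 genes under 7 settings, each with its own marker, and dotted lines at 2-fold. LHY stays above the upper line and TOC1 below the lower one, while PRR37, Ghd7 and CO spread widely with the pseudocount, PRR37 between 0.09 and 3.86.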

How the data were processed

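RNA was sequenced from stem internodes at physiological maturity and at the milk stage, with 4 libraries in all. A strand-specific library kit for total RNA was used, per the labels' protocols. The FPKM values were computed and deposited by the authors. The submitters' processing notes name Cuffdiff (without version), HISAT2 2.0.5, Bowtie2 2.2.9 and cutadapt 1.8.1, without a role for each. Not given in the sources used here are the build of the genome, the strand option of the counting, how libraries of a stage were combined and how stages were scaled. Depth is unknown, and no interval can be given.

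The 8 genes and all lists were chosen with earlier results of these data known. Their names come from published identifiers and not from the table. Genes were named if they were among these 8 or the further 7 listed by identifier; SUT1 was the marker, and Bmr12 and other neighbours were named after their values were seen. Since the table holds 1 value per stage, no test was run. Loci at 1 FPKM or more at either stage were compared as log2(FPKM + 1), and a difference of at least 2-fold was counted. None of the 34129 identifiers matched the RefSeq gene table (0 matches), so lists by product description, including other tissue markers, could not be formed. No genome, promoter or protein sequence was used here, and no coordinates are given. Calculations used Python 3.11.15, numpy 2.4.6, pandas 2.3.3 and matplotlib 3.10.9, and were tested on simulated data.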

Additional observations from a re-analysis of the deposited data

How the results depend on the processing

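The alternatives were pseudocounts of 0.1 and 0.5, quantile normalization, equal sums (the mean of the deposited sums) and median-of-ratios scaling. Leaving out the pseudocount was added as an alternative after the data had been seen. The log2 differences of the 8 genes kept their sign in 48 of 48 values. A pseudocount cannot turn a sign, so only the values under the 3 scalings bear on direction. Of the 48 values, 44 moved by less than 1.5 times. Those that moved were PRR37, at 0.67 with a pseudocount of 0.1 and 3.86 with none, Ghd7 at 0.89 and CO at -1.27 with none, all of them under 1 FPKM. With pseudocounts of 0.1 and 0.5, the 3 scalings, no filter and a minimum of 5 FPKM, LHY was the 1 gene at least 2-fold higher and TOC1 the 1 at least 2-fold lower. When 4-fold was required, a limit set with the values known, 0 of the 8 genes were higher and TOC1 was still lower, and over all loci compared 416 were higher and 427 lower. Equal sums put 69.7% of all 2-fold calls on the higher side, compared with 51.8% without rescaling. The LHY to TOC1 ratio without the added 1 was 17.3 at maturity and 1.43 at the milk stage. No paired analysis was possible because each stage has a single combined value, and for the same reason no library could be left out. Unknown depth limits the reading of PRR37, Ghd7 and CO.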
